A study of Homo sapiens with 24 samples.

Results

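The response of U2932 cells to trabectedin was compared between 24 h and 8 h of treatment. U2932 is a human diffuse large B cell lymphoma line. The comparison is a difference of differences: trabectedin minus DMSO at 24 h, less trabectedin minus DMSO at 8 h. It used every array of this line, 12 of the 24 arrays of the series, all of which lay on 1 chip. Its 4 groups of 3 arrays were U2932 cells treated with trabectedin for 24 h, U2932 cells given DMSO for 24 h, U2932 cells treated with trabectedin for 8 h, and U2932 cells given DMSO for 8 h. The other 12 arrays held the same treatments and times in OCI-Ly7, a second lymphoma line. The labels give no dose of the drug, and they do not say whether the arrays of a group came from separate cultures, so the p-values below measure only the spread between these arrays.

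Trabectedin is a marine alkaloid that binds in the minor groove of DNA and is known to disturb transcription and to cause breaks when nucleotide excision repair acts on its adducts. When transcription is disturbed, transcripts with short lives are lost early and stable ones late, so the time of sampling bears on what an array shows. In B cells, surface receptors such as CD40, CXCR5 and CD22, the kinases below the B cell receptor and transcription factors of the IKZF, POU2AF1 and BCL6 kind maintain identity and survival signals. In such bulk RNA samples, fewer cells of a type and less RNA per cell cannot be told apart.

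RNA was labelled from poly(A) tails and hybridised to 1-colour bead arrays, and brightness was expressed as a normalised log2 intensity, on which 1 unit is a 2-fold step. Mean raw intensity was 365 in 24 h trabectedin cells, against 543 in 24 h DMSO cells, and 460 in 8 h trabectedin cells, against 539 in 8 h DMSO cells. The number of probes above background ran from 11325 to 12850 on the 24 h trabectedin arrays, against 14959 to 15607 on the 24 h DMSO arrays, and from 13165 to 13404 on the 8 h trabectedin arrays, against 14763 to 15623 on the 8 h DMSO arrays. The treated arrays were thus dimmer at both times, without overlap in the number of detected probes. Arrays of 1 group correlated with each other at 0.989 to 0.998. Trabectedin arrays took the chip's first 6 positions and DMSO arrays the last 6, so position and treatment cannot be told apart, whereas 8 h and 24 h arrays alternated. B cell markers were present (7 of 9 detected on all arrays of both treated groups, 8 of 9 in both DMSO groups), although PAX5 was in the background in all 4 groups and EBF1 in both treated groups. The T cell genes CD3D, CD3E, CD3G, CD2, CD4, CD5 and CD8A were in the background in every group.

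Of 9650 genes tested, 2409 had a higher response at 24 h than at 8 h and 3333 a lower one (limma, Benjamini-Hochberg adjusted p under 0.05), which is 25.0% and 34.5% of the genes. The difference reached at least 1 log2 unit for 443 of the higher and 1059 of the lower genes. Each time on its own showed a broad response. At 24 h, 3835 genes were higher and 4617 lower in trabectedin than in DMSO cells (39.7% and 47.8%), and at 8 h 3718 were higher and 3916 lower (38.5% and 40.6%). The effects at both times, which share no array, correlated across the 9650 genes with r = 0.906, a description only since genes are not independent replicates.

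The called genes were sorted by their effects at both times. Grown genes moved the same way at both times and further at 24 h, and they were the largest class, with 3859 of 5742 called genes. Late genes, 945 in number, were called at 24 h but not at 8 h. Recovered genes were called at 8 h but not at 24 h (313), and shrunk genes kept their direction at a smaller size (298). Reversed genes were called in opposite directions at 24 h and at 8 h (301), and 26 genes were called at neither time. The reversed class was lopsided: 238 genes were below DMSO at 24 h and above it at 8 h, with a median effect of -0.49 at 24 h and 0.40 at 8 h, whereas 63 were above DMSO at 24 h and below it at 8 h, with medians of 0.43 and -0.31. Late falls (553) had a median 24 h effect of -0.76, and late rises (392) one of 0.70.

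**Figure D1:**
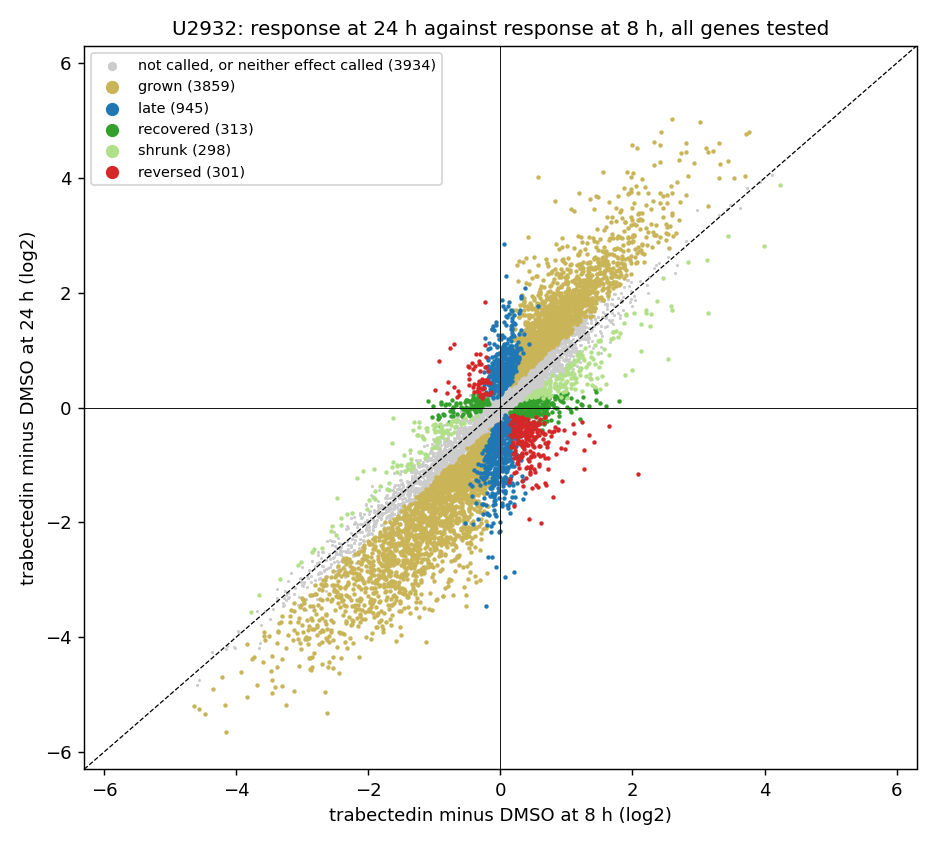
Trabectedin effect at 24 h against the effect at 8 h in U2932 (log2 units, 1 point per gene), coloured by class. Reversed genes lie in the upper left and lower right quadrants, 63 and 238 in number, and grown genes, 3859, lie further from 0 at 24 h than at 8 h.

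Much of this sorting depended on how arrays were put on 1 scale. Quantile normalisation gives every array the same distribution, although the 24 h trabectedin arrays were dimmer. With the median of each array as the only scaling, 819 of the 9650 genes were higher and 5001 lower. Of the called genes 14.1% were then higher, against 42.0% with quantile normalisation. Counts of gene lists on the median scale, given below, are to be read against these counts over all genes. The median interaction over all genes was -0.42 on that scale and -0.07 after quantile normalisation. Which scale is nearer to the amount of RNA per cell was not measured. Of the 3333 lower calls, 3275 were called lower on both scales, as were all 238 genes reversed towards lower. Of the 2409 higher calls, 801 were called higher on both. Median scaling moves the interactions as a whole towards lower, so that lower calls are kept and higher calls lost by construction. The kept lower calls are therefore no test of those calls. Classes changed more often than calls, since each class depends on where 0 lies. Under quantile normalisation, median scaling and quantile normalisation without background correction alike, 23 of the 238 genes reversed towards lower, 0 of the 63 reversed towards higher and 1911 of the 2130 grown falls stayed in class. The median 24 h effect over all genes was -1.06 on the median scale and -0.14 after quantile normalisation. Rises at 24 h are thus lost by construction, and these counts do not rank the directions. The same class and direction held on both scales for 27 of the 301 reversed, 127 of the 945 late, 2485 of the 3859 grown and 134 of the 611 recovered or shrunk genes.

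**Figure D2:**
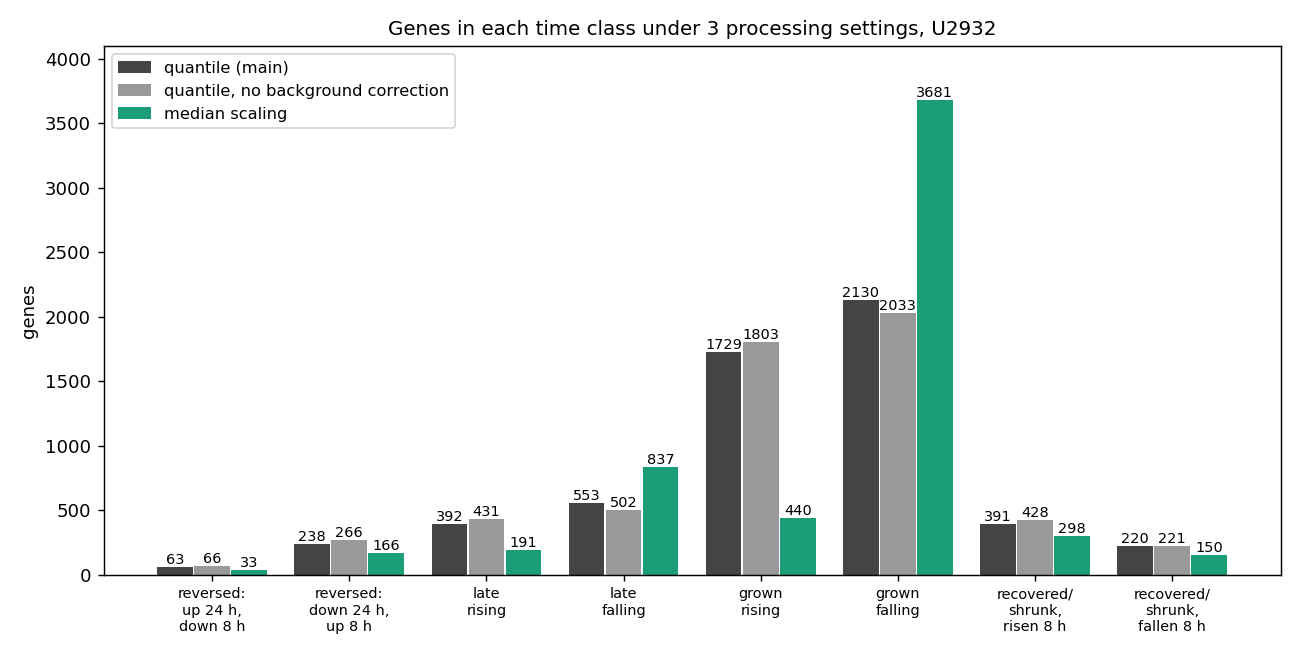
Number of genes in each time class of U2932, by direction, after quantile normalisation, after quantile normalisation without background correction, and with median scaling (bars). Grown falls numbered 2130 after quantile normalisation and 3681 with median scaling, and grown rises 1729 and 440.

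The change between the times lay mainly in the treated cells. From 8 h to 24 h, 2741 genes rose and 3901 fell on the trabectedin arrays (28.4% and 40.4%), against 781 and 914 on the DMSO arrays (8.09% and 9.47%). The DMSO counts were 472 and 533 without the 24 h DMSO replicate 2. Of the 5742 genes with a called interaction, the trabectedin arrays moved the same way, past the threshold, in 5242 (91.3%). The DMSO arrays moved the other way in 956 (16.6%), and their movement was the larger one in 622 (10.8%).

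IKZF3, the B cell zinc finger transcription factor Aiolos, showed the largest reversal among genes above background on at least 1 array of every group. It was above background on 1 of the 3 treated 24 h arrays, so its 24 h effect leans on values near the background. It read 5.62, 6.51 and 6.01 in 24 h trabectedin cells, against 7.26, 7.17 and 7.19 in 24 h DMSO cells. At 8 h it read 9.11, 9.02 and 9.10 in trabectedin cells, against 7.16, 6.77 and 7.06 in DMSO cells. The treated arrays were thus the lowest of all at 24 h and the highest of all at 8 h, with no overlap at either time, while both DMSO groups lay close together. The effect was -1.16 at 24 h and 2.08 at 8 h, an interaction of -3.24 ± 0.24 (SE, limma adjusted p = 4.17e-07). A second IKZF3 probe gave a smaller interaction of -0.97, with -0.56 at 24 h and an 8 h effect of 0.41 that did not pass (adjusted p = 0.144). The IKZF3 reversal was kept on the median scale, at -2.37 and 1.44.

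CD40, the receptor through which T helper cells costimulate B cells, also reversed. It read 7.16, 7.09 and 6.99 in 24 h trabectedin cells, against 7.94, 7.8 and 7.67 in 24 h DMSO cells, and 8.21, 8.42 and 8.15 in 8 h trabectedin cells, against 7.22, 7.32 and 7.29 in 8 h DMSO cells. The groups did not overlap at either time. The interaction was -1.71 ± 0.13 (adjusted p = 3.99e-07), from -0.72 at 24 h and 0.98 at 8 h. Another CD40 probe gave a deeper 24 h effect of -1.75 and an 8 h effect of 0.22 that did not pass (adjusted p = 0.0649).

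CXCR5, the chemokine receptor that directs B cells to follicles, was bright in every group. Its values were 11.17, 11.13 and 11.26 in 24 h trabectedin cells, against 12.20, 11.96 and 12.04 in 24 h DMSO cells. At 8 h they were 12.52, 12.38 and 12.45 in trabectedin cells, against 12.22, 12.22 and 12.30 in DMSO cells. The fall at 24 h (-0.88) was larger than the rise at 8 h (0.20), and the groups did not overlap at either time. The interaction was -1.08 ± 0.10 (adjusted p = 2.9e-06). The other CXCR5 probes gave larger rises at 8 h (1.32 and 0.80) and smaller falls at 24 h (-0.17 and -0.32), so all 3 probes reversed. FCRLA, an Fc receptor-like protein of germinal centre B cells, reversed by less, with 12.26, 12.16 and 12.26 in 24 h trabectedin cells, against 12.29, 12.47 and 12.53 in 24 h DMSO cells, and 12.70, 12.73 and 12.58 in 8 h trabectedin cells, against 12.18, 12.38 and 12.40 in 8 h DMSO cells. Its interaction was -0.55 ± 0.12 (adjusted p = 0.00151), from -0.20 at 24 h and 0.35 at 8 h.

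**Figure D3:**
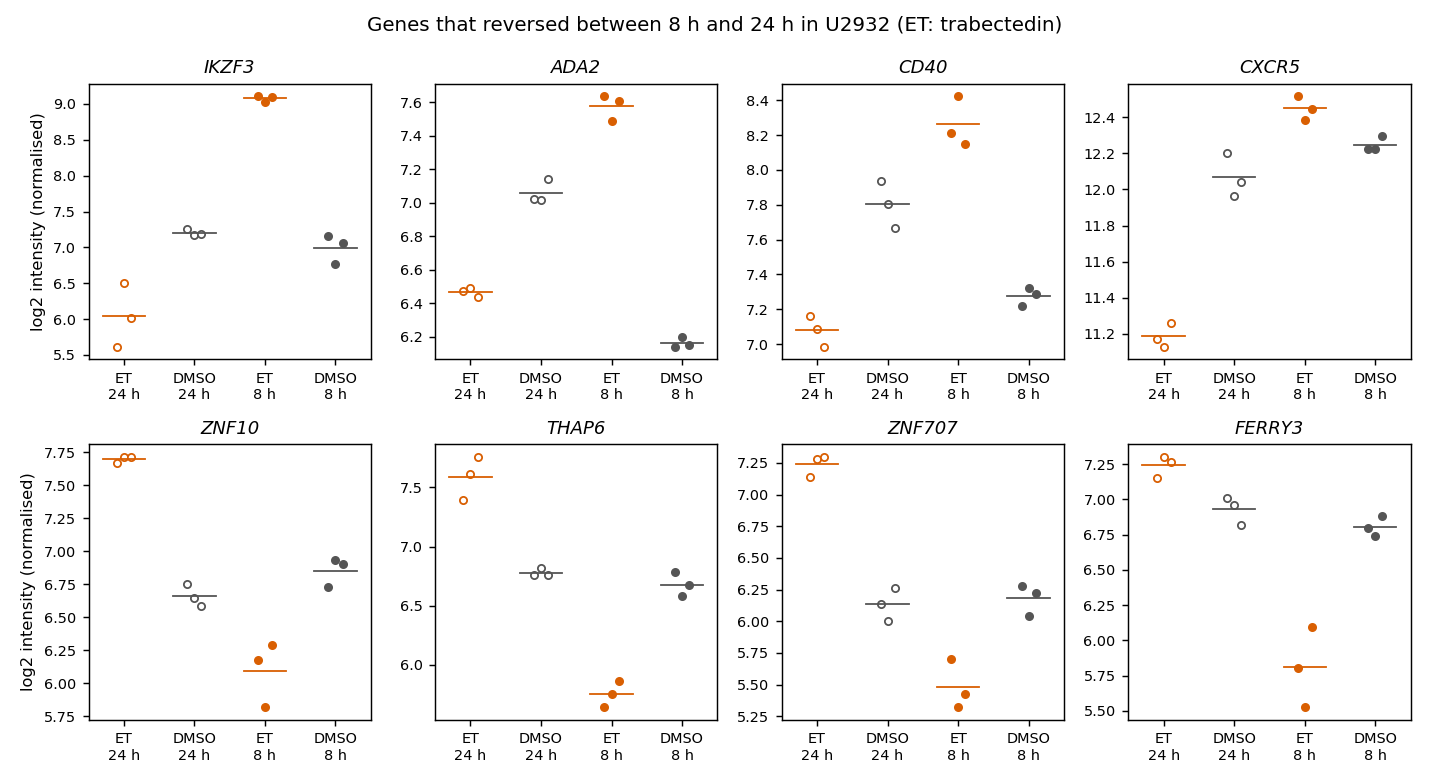
Normalised log2 intensity of reversed genes on each U2932 array, by group (1 point per array, line at the mean of 3). IKZF3 and CD40 in treated cells lie below DMSO at 24 h and above it at 8 h.

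ADA2, a secreted adenosine deaminase, and CAMP, the precursor of the antimicrobial peptide LL-37, were the other leading reversals that kept their class on both scales and without background correction. ADA2 read 6.47, 6.49 and 6.44 in 24 h trabectedin cells, against 7.02, 7.01 and 7.14 in 24 h DMSO cells, and 7.64, 7.48 and 7.61 in 8 h trabectedin cells, against 6.14, 6.20 and 6.15 in 8 h DMSO cells. Its groups did not overlap, and part of its interaction of -2.01 ± 0.09 (adjusted p = 1.65e-08) came from a DMSO level that was 0.90 higher at 24 h than at 8 h. CAMP read 5.75, 6.40 and 5.53 in 24 h trabectedin cells, against 6.59, 6.74 and 6.55 in 24 h DMSO cells. At 8 h, CAMP read 7.71, 7.75 and 7.71 in trabectedin cells, against 6.50, 6.43 and 6.46 in DMSO cells. The treated 24 h arrays of CAMP were spread widely but stayed below their DMSO arrays, and its interaction was -1.99 ± 0.23 (adjusted p = 1.28e-05). As with IKZF3, 1 of those 3 arrays of CAMP was above background. MSRB2, a mitochondrial methionine sulfoxide reductase, had an interaction of -2.03 ± 0.21 (adjusted p = 6.09e-06), from -1.34 at 24 h, where 1 of 3 treated arrays was above background, and 0.69 at 8 h. With median scaling MSRB2 was late instead, its 8 h effect being -0.10.

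In all, 23 genes reversed towards lower on both scales and without background correction, and 17 of them were above background on at least 1 array of every group, all but IKZF3 and CAMP on every array. Beside IKZF3, ADA2, CAMP, CD40, CXCR5 and FCRLA these were TAF15, GAMT, FKBP2, ALOX5AP, ARPC3, CIRBP, IGLL1, SIAH2, PXMP2, NDUFB8 and CDKN2AIPNL, named here after their values were seen. TAF15 is an RNA-binding protein of the FET family, and its interaction of -1.80 came from -1.08 at 24 h and 0.72 at 8 h. Its DMSO level, however, was 1.36 higher at 24 h than at 8 h, while its treated level moved by -0.45, and its other probe did not reverse (-0.06 at 24 h, adjusted p = 0.569, and 1.31 at 8 h). ALOX5AP, which presents arachidonic acid to 5-lipoxygenase, had -0.84 at 24 h and 0.46 at 8 h. CIRBP, a cold-inducible RNA-binding protein, had -0.88 at 24 h and 0.30 at 8 h. IGLL1, a surrogate light chain gene with close relatives among the lambda light chain genes, had -0.33 at 24 h and 0.82 at 8 h. For FKBP2, an ER prolyl isomerase, the probes disagreed, with interactions of -1.39, -0.06 and -0.91. The DMSO level of FKBP2 was 1.01 higher at 24 h than at 8 h and that of ARPC3 0.69 higher. Their treated levels moved by less, -0.38 and -0.58. PXMP2, a peroxisomal membrane protein, had -0.25 at 24 h and 0.50 at 8 h, but its other probe rose at both times (1.42 and 1.12), with an interaction of 0.31 (adjusted p = 0.00793).

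CD69, an early activation antigen, and LRRC32 (above background on 1 of 3 DMSO arrays at 8 h) were classed as reversed in the same way, from treated levels that were in the background at 24 h. Their 24 h falls can therefore only be bounded, at 1.09-fold or more for CD69 and 1.03-fold or more for LRRC32. How far they fell below DMSO at 24 h is not known. Another CD69 probe gave smaller effects, -0.48 at 24 h and 0.37 at 8 h. At 24 h CD69 was in the background on all trabectedin arrays, against 6.27, 6.10 and 6.08 in DMSO cells. At 8 h it read 7.8, 7.71 and 7.67 in trabectedin cells, against 6.48, 6.55 and 6.35 in DMSO cells, without overlap.

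The 300 bases around the start of a few named genes are printed as examples. The windows run from 250 bases before the start to 50 after it (RefSeq, GRCh38.p14, all on the plus strand of the reference). The genes printed did not all move the same way. Other starts, where a gene has them, are not shown. Capitals mark the motifs searched for on both strands: AP-1 (TGANTCA), the cyclic AMP response element (TGACGTCA) and the CCAAT box (CCAAT). CXCR5 (chr11:118893142-118893441) and FCRLA (chr1:161706979-161707278) stand for genes reversed towards lower, ZNF10 (chr12:133130377-133130676) for genes reversed towards higher, and ATF3 (chr1:212565157-212565456) for rises that grew.
CXCR5: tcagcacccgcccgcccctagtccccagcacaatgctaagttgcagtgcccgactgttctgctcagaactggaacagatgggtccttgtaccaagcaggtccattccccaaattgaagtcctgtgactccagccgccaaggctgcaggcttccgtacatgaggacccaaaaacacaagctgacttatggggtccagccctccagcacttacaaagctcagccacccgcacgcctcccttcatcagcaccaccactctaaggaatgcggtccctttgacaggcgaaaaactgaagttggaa
FCRLA: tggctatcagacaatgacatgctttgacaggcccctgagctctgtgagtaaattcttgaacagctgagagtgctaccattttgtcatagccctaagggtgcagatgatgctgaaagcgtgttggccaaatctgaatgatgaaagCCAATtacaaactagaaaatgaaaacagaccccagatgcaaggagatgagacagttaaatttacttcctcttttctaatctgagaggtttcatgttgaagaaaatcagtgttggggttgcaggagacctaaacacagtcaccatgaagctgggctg
ZNF10: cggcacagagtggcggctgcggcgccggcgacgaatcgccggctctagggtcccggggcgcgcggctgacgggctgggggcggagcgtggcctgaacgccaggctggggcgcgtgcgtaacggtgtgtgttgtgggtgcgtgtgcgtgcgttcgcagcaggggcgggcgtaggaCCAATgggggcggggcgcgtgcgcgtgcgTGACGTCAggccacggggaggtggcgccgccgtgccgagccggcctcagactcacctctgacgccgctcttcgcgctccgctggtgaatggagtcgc
ATF3: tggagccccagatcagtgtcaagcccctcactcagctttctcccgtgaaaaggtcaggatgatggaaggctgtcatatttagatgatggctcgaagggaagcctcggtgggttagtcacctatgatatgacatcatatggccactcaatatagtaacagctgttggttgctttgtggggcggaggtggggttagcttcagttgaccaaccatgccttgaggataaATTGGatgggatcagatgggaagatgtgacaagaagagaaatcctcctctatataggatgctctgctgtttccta

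The CXCR5 window held none of the 3 motifs. FCRLA held a CCAAT box at position 145 of its window, counted from 1 at the 5′ end. ZNF10 held a CCAAT box at 175 and a cyclic AMP response element at 204, and ATF3 held a CCAAT box on the minus strand at 226. Of the 9650 tested genes, 7789 had a promoter in the table, of which 3.98% held AP-1, 3.61% the cyclic AMP response element and 38.7% a CCAAT box. Over all 27305 promoters of the table those shares were 7.76%, 1.98% and 35.7%. Of 181 promoters of genes reversed towards lower, 4.97% held AP-1, 4.42% the cyclic AMP response element and 38.7% a CCAAT box, close to the tested genes as a whole. These matches describe letters in the window and are no evidence of binding.

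Among the largest reversals towards higher, ZNF10, a KRAB zinc finger repressor, read 7.67, 7.71 and 7.71 in 24 h trabectedin cells, against 6.75, 6.65 and 6.59 in 24 h DMSO cells. At 8 h it read 6.18, 5.82 and 6.29 in trabectedin cells, against 6.73, 6.93 and 6.90 in DMSO cells, again without overlap. Its interaction was 1.79 ± 0.15 (adjusted p = 9.15e-07). ZNF707 had 1.11 at 24 h and -0.70 at 8 h, THAP6 0.81 and -0.93, and FERRY3, a subunit of an endosomal mRNA-transport complex, 0.31 and -0.99. On the treated 8 h arrays, ZNF707 was above background on 1 of 3 and THAP6 and FERRY3 on 2 of 3. None of these 4 kept a rise at 24 h on the median scale, where their 24 h effects were -0.37 for ZNF10, -0.25 for ZNF707, -0.62 for THAP6 and -1.15 for FERRY3, although the interactions stayed positive and called. HSPA1A, an inducible heat shock protein with a near-identical copy, behaved like these 4, with 0.37 at 24 h and -0.70 at 8 h after quantile normalisation and -1.10 and -1.55 on the median scale. No gene reversed towards higher on both scales and without background correction, of 63. Median scaling lowers 24 h effects as a whole, so this count is no test of these reversals. EIF1AD reversed towards higher on both scales (1.84 at 24 h and -0.24 at 8 h, and 1.05 and -0.50 on the median scale). Without background correction it was late, and its treated 8 h and DMSO 24 h arrays were all in the background.

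Some falls were smaller at 24 h than at 8 h. NCOA6, a nuclear receptor coactivator, read 8.57, 8.54 and 8.76 in 24 h trabectedin cells, against 8.80, 8.84 and 8.78 in 24 h DMSO cells, and 7.62, 7.73 and 7.72 in 8 h trabectedin cells, against 9.35, 9.33 and 9.26 in 8 h DMSO cells. The treated arrays lay far below DMSO at 8 h and just below it at 24 h. The effect was -0.18 at 24 h and -1.62 at 8 h, and the interaction was 1.44 ± 0.10 (adjusted p = 2.27e-07). CRBN, the cereblon substrate receptor of a ubiquitin ligase and target of thalidomide analogues, had -0.26 at 24 h and -1.31 at 8 h, and ZNF559 had -0.62 and -1.64. With median scaling these 3 genes remained well below DMSO at 24 h, at -1.39, -1.63 and -2.09, and their fall was still smaller than at 8 h. They are shrunk, not recovered, genes, and none of the 107 genes recovered from an 8 h fall stayed recovered on both scales and without background correction. Since median scaling lowers 24 h effects as a whole, that count is no test of recovery. RNF20, an E3 ligase for histone H2B, had 0.11 at 24 h and -1.09 at 8 h, and -1.12 and -1.86 on the median scale.

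Among genes that rose at 8 h and were back near DMSO at 24 h, NR3C1, the glucocorticoid receptor, read 7.17, 7.32 and 7.2 in 24 h trabectedin cells, against 7.11, 7.11 and 6.94 in 24 h DMSO cells, and 8.21, 8.18 and 8.18 in 8 h trabectedin cells, against 6.72, 7.13 and 6.96 in 8 h DMSO cells. The groups were apart at 8 h and close at 24 h, and the interaction was -1.07 ± 0.13 (adjusted p = 2.54e-05). Another NR3C1 probe went the other way and did not recover, with -1.72 at 24 h and -1.66 at 8 h. AASDH had -0.07 at 24 h and 1.06 at 8 h, and MYO1G, a myosin of blood cells, -0.25 and 0.87 (above background on 2 of 3 treated arrays at 24 h). NR3C1 and AASDH were reversed instead on the median scale, with 24 h effects of -1.28 and -1.53, and MYO1G was late, at -1.44. CTSZ, a lysosomal cysteine protease, shows a different route to the same class. Its treated level did not move between the times (0.00), and its DMSO level was 1.08 higher at 24 h than at 8 h. With median scaling CTSZ was late, with a 24 h effect of -1.22.

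**Figure D4:**
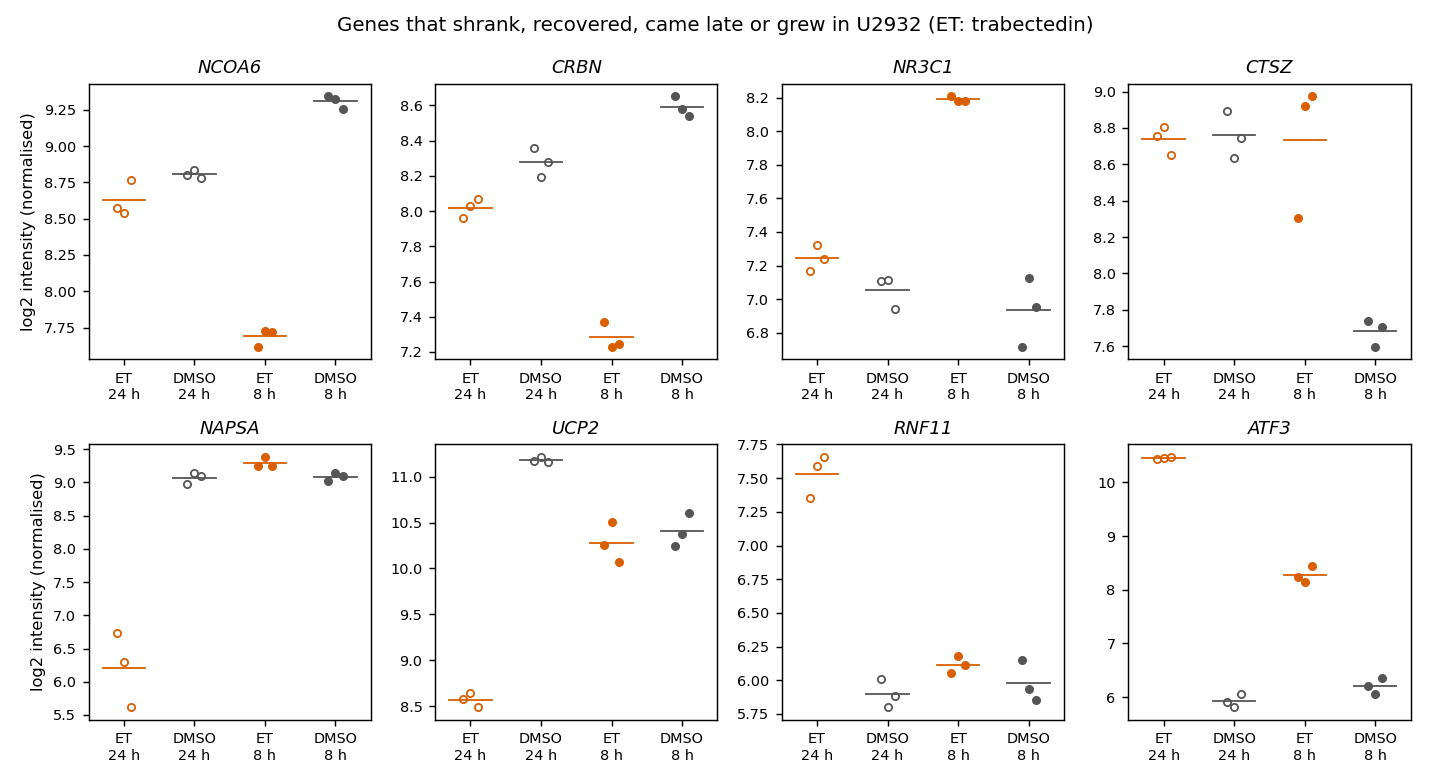
Normalised log2 intensity on each U2932 array for genes that shrank (NCOA6, CRBN), recovered (NR3C1, CTSZ), came late (NAPSA, UCP2, RNF11) or grew (ATF3), by group (1 point per array, line at the mean of 3). NCOA6 lies close to DMSO at 24 h and well below it at 8 h, whereas NAPSA and UCP2 leave DMSO at 24 h.

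Late falls outnumbered late rises, 553 to 392. NAPSA, an aspartic protease, read 6.73, 6.29 and 5.62 in 24 h trabectedin cells, against 8.98, 9.14 and 9.09 in 24 h DMSO cells, and 9.25, 9.38 and 9.25 in 8 h trabectedin cells, against 9.02, 9.14 and 9.09 in 8 h DMSO cells. Only the treated 24 h arrays, of which 2 of 3 were above background, stood apart from the rest. The interaction was -3.07 ± 0.28 (adjusted p = 1.85e-06). NAPSB, its near-identical pseudogene copy, gave -2.88 at 24 h and -0.20 at 8 h (-2.64 and 0.23 with its other probe), and probes of the pair may read each other's RNA.

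UCP2, a mitochondrial carrier, read 8.58, 8.64 and 8.49 in 24 h trabectedin cells, against 11.17, 11.21 and 11.16 in 24 h DMSO cells. At 8 h UCP2 read 10.25, 10.51 and 10.07 in trabectedin cells, against 10.25, 10.37 and 10.60 in DMSO cells, with overlap. Its 24 h effect was -2.61 and its interaction -2.48 ± 0.16 (adjusted p = 1.13e-07). RILPL2, a Rab-binding lysosomal trafficking protein, had -2.17 at 24 h and -0.01 at 8 h, and DYNLT2B, a dynein light chain, -2.17 and -0.14. The other DYNLT2B probe rose at 8 h (0.43) and fell at 24 h (-1.52). With median scaling NAPSA, UCP2, RILPL2 and DYNLT2B were already lower at 8 h, by effects of -0.36, -0.45, -0.55 and -0.35, so that they were grown falls there.

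Late rises among genes above background on at least 1 array of every group were led by IRAIN, an antisense RNA of the IGF1R locus, with 1.95 at 24 h and 0.31 at 8 h (adjusted p for the interaction = 0.00014). In each 8 h group 1 of 3 arrays of IRAIN was above background. RNF11, a RING finger protein, read 7.36, 7.59 and 7.66 in 24 h trabectedin cells, against 6.01, 5.80 and 5.88 in 24 h DMSO cells, and 6.06, 6.18 and 6.11 in 8 h trabectedin cells, against 6.15, 5.94 and 5.85 in 8 h DMSO cells. The 24 h treated arrays alone were high, with an effect of 1.64 and an interaction of 1.50 ± 0.14 (adjusted p = 1.96e-06). SIRT6, a chromatin deacylase, had 1.62 at 24 h and 0.20 at 8 h (2 of 3 treated arrays above background), and TXNL4B, a spliceosomal thioredoxin-like protein, 1.59 and 0.08. Of these, IRAIN and SIRT6 were late on both scales, while RNF11 and TXNL4B were below DMSO at 8 h on the median scale (-0.54 and -0.60).

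A late rise from the background has only a lower bound, set by the dimmest probe above background. LINC00115, a long noncoding RNA, was above background on the 24 h trabectedin arrays alone (7.70, 7.41 and 7.30) and was at least 4.31-fold higher there than in 24 h DMSO cells (adjusted p for the interaction = 2.91e-08). GJB2, connexin 26, was at least 10.5-fold higher in trabectedin than in DMSO cells at 24 h, from values of 8.64, 8.75 and 8.85 in trabectedin cells. Both 8 h groups of GJB2 were in the background. SNORD37, a box C/D small nucleolar RNA, was at least 4.95-fold higher at 24 h.

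Rises that grew included ATF3, a stress-induced transcription factor. It read 10.43, 10.45 and 10.47 in 24 h trabectedin cells, against 5.90, 5.81 and 6.06 in 24 h DMSO cells, and 8.24, 8.15 and 8.44 in 8 h trabectedin cells, against 6.20, 6.06 and 6.36 in 8 h DMSO cells. The groups were far apart at both times and further apart at 24 h. The effect was 4.53 at 24 h and 2.07 at 8 h, and the interaction was 2.45 ± 0.14 (adjusted p = 4.66e-08). UPP1, a uridine phosphorylase, had 4.11 at 24 h and 1.55 at 8 h, and SNORD110 5.03 and 2.60. The interactions of ATF3, UPP1 and SNORD110 were 2.40, 2.52 and 2.43 on the median scale. JUN, the AP-1 subunit, was in the background in both DMSO groups. It read 9.35, 9.28 and 9.26 in 24 h trabectedin cells and 7.83, 7.72 and 7.82 in 8 h trabectedin cells, at least 15.3-fold above DMSO at 24 h and at least 5.31-fold at 8 h.

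Falls that grew were the largest group, with 2130 genes, of which 848 had sunk into the background on every treated 24 h array. ACOT13, a thioesterase for acyl-CoA, read 5.26, 6.26 and 5.85 in 24 h trabectedin cells, against 9.90, 9.83 and 9.88 in 24 h DMSO cells, and 8.60, 8.60 and 8.61 in 8 h trabectedin cells, against 9.81, 9.72 and 9.64 in 8 h DMSO cells. Its groups did not overlap at either time, and its effect was -4.08 at 24 h and -1.12 at 8 h. STYXL1, a pseudophosphatase, had -3.27 at 24 h and -0.52 at 8 h. Each of ACOT13 and STYXL1 was above background on 1 of 3 treated 24 h arrays, so their 24 h effects depend on values in the background. Genes that reached the background included PVRIG, an immune receptor, at least 22.9-fold lower in trabectedin than in DMSO cells at 24 h. TNS3, a tensin, was at least 21.2-fold lower, and GTF2F2, a subunit of the general transcription factor TFIIF, at least 19.8-fold lower. These bounds are not the change between the times. At 8 h the effects were already -2.63 for PVRIG, -4.16 for TNS3 and -3.12 for GTF2F2.

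Genes of B cell signalling and identity mostly had lower responses at 24 h. Of 29 tested genes of B cell receptor signalling, 21 had a lower and 1 a higher response, and of 20 transcription factors of B cell identity 16 were lower and 0 higher, against 34.5% lower and 25.0% higher over all genes. The median interaction was -0.54 and -0.69 for these lists, against -0.07 over all genes, and on the median scale the counts were 23 lower and 0 higher, and 17 lower and 0 higher. Of these lists 19 of 29 and 10 of 20 genes were above background on at least 1 array of every group, against 6964 of 9650 over all genes. The rest can pass the detection filter through the groups where they are high, which can favour lower counts. LYN, a Src family kinase next to the receptor, read 6.35, 6.60 and 6.40 in 24 h trabectedin cells, against 10.98, 11.02 and 10.96 in 24 h DMSO cells, and 8.49, 8.48 and 8.55 in 8 h trabectedin cells, against 11.05, 10.96 and 11.09 in 8 h DMSO cells. The fall of LYN, already clear at 8 h (-2.53), went further at 24 h (-4.54). Below LYN, the kinases SYK (-3.65 at 24 h, -1.92 at 8 h) and BTK (-1.64 and -0.46) also fell further. PRKCB (-1.56 and -0.10) fell late after quantile normalisation, but on the median scale its 8 h effect was -0.84 and it was a grown fall. Of the other PRKCB probes, 1 showed no called effect (-0.05 and 0.18). Others had 8 h effects of -0.28 and -0.31, both called, and -0.07, not called. DAPP1, an adaptor of the pathway, was the 1 gene higher (0.29), but another DAPP1 probe gave -1.32, and the call was lost without any 1 of 4 arrays.

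Among the transcription factors, POU2AF1, a coactivator of octamer factors, had -2.93 at 24 h and -1.28 at 8 h. BCL6, the germinal centre repressor, read 9.45, 9.66 and 9.52 in 24 h trabectedin cells, against 11.36, 11.40 and 11.43 in 24 h DMSO cells, and 10.90, 10.89 and 10.99 in 8 h trabectedin cells, against 11.36, 11.34 and 11.40 in 8 h DMSO cells. Treated cells were below DMSO at both times without overlap, and the interaction was -1.41 ± 0.09 (adjusted p = 1.83e-07). IRF4, a plasma cell and activated B cell factor, had 0.18 at 24 h and 0.47 at 8 h, and -0.80 and 0.01 on the median scale. Its interaction of -0.29 was not called without any 1 of 7 arrays (-0.29 to -0.25). Of 17 markers of germinal centre B cell-like lymphoma 13 were lower and 0 higher, and of 17 markers of activated B cell-like lymphoma 7 were lower and 1 higher (41.2% lower, near the 34.5% of all genes). Only 12 and 11 of these markers were above background on at least 1 array of every group, so the same limit holds. At the surface, CD37, a B cell tetraspanin, had -0.83 at 24 h and 0.65 at 8 h, and CD22, an inhibitory co-receptor, -0.54 and 0.65. Both reversed after quantile normalisation, while on the median scale their 8 h effects were -0.00 and -0.15 and both were late. In CD37 the larger movement was that of the DMSO cells, by 0.98 from 8 h to 24 h, against -0.50 in trabectedin cells. MS4A1 (CD20) had -0.11 at 24 h and 0.44 at 8 h, but its other probe rose at both times, with 2.10 and 1.58.

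NF-kB target genes changed from mixed at 8 h to mostly lower at 24 h. Of 25 tested, 18 had a lower and 1 a higher response, and on the median scale 20 were lower and 0 higher. After quantile normalisation the shares were 72% and 4%, against 34.5% and 25.0% of all genes. The median effect was -0.71 at 24 h and 0.06 at 8 h. At 24 h 16 were below DMSO and 7 above, against 9 below and 10 above at 8 h. Over all genes 47.8% were below and 39.7% above DMSO at 24 h, and 40.6% and 38.5% at 8 h. The mixed state at 8 h was thus near that of all genes. TNFAIP3, the inhibitor A20, read 7.06, 6.69 and 6.94 in 24 h trabectedin cells, against 6.95, 6.82 and 6.88 in 24 h DMSO cells, and 7.84, 8.10 and 7.94 in 8 h trabectedin cells, against 6.79, 6.95 and 7.11 in 8 h DMSO cells. The rise at 8 h (1.01) was gone at 24 h (0.01). NFKBIA, which holds NF-kB in the cytoplasm, had 0.78 at 24 h and 1.34 at 8 h, and BCL2A1, a survival gene, 0.40 and 1.07. The 24 h effects of these 3 on the median scale were -1.44, 0.19 and -1.05. NFKB1, the p105 precursor of p50, fell at both times, with -3.44 at 24 h and -1.65 at 8 h. CD83 fell late (-1.30 and -0.09; another probe -1.12 and 0.20), as LTB fell further (-2.00 and -0.80). Of 27 interferon response genes, 15 were lower and 4 higher (55.6% and 14.8%, against 34.5% and 25.0% of all genes). PSMB9, an immunoproteasome subunit, had -2.24 at 24 h (2 of 3 treated arrays above background) and -0.39 at 8 h, and -0.38 and 0.19 with its other probe, and IFI27, in the background in both DMSO groups, was at least 6.66-fold above DMSO at 24 h and at least 2.59-fold at 8 h.

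Genes of the immediate early kind and others with unstable transcripts went the other way. Of 40 tested, 24 had a higher and 8 a lower response (60% and 20%, against 25.0% and 34.5% of all genes). The median effect was 1.61 at 24 h and 1.03 at 8 h. With median scaling 12 were higher and 10 lower. KLF6, a zinc finger factor, read 11.54, 11.38 and 11.50 in 24 h trabectedin cells, against 8.14, 8.21 and 8.22 in 24 h DMSO cells, and 10.41, 10.38 and 10.39 in 8 h trabectedin cells, against 8.25, 8.29 and 8.30 in 8 h DMSO cells. DUSP1, a MAP kinase phosphatase, had 2.67 at 24 h and 1.61 at 8 h, and IER2 2.54 and 1.36. These rises were larger at 24 h on both scales. IER3 had 1.33 at 24 h and 1.75 at 8 h, and -0.01 and 1.12 on the median scale. TIPARP, an ADP-ribosyltransferase, reversed after quantile normalisation (-0.27 and 0.67) and was late on the median scale (-1.34 and 0.16). MYC had 0.25 at 24 h and 0.61 at 8 h after quantile normalisation, -1.12 and -0.14 on the median scale, and 0.37 and 0.25 with its other probe, so no direction over time is given for it.

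**Figure D5:**
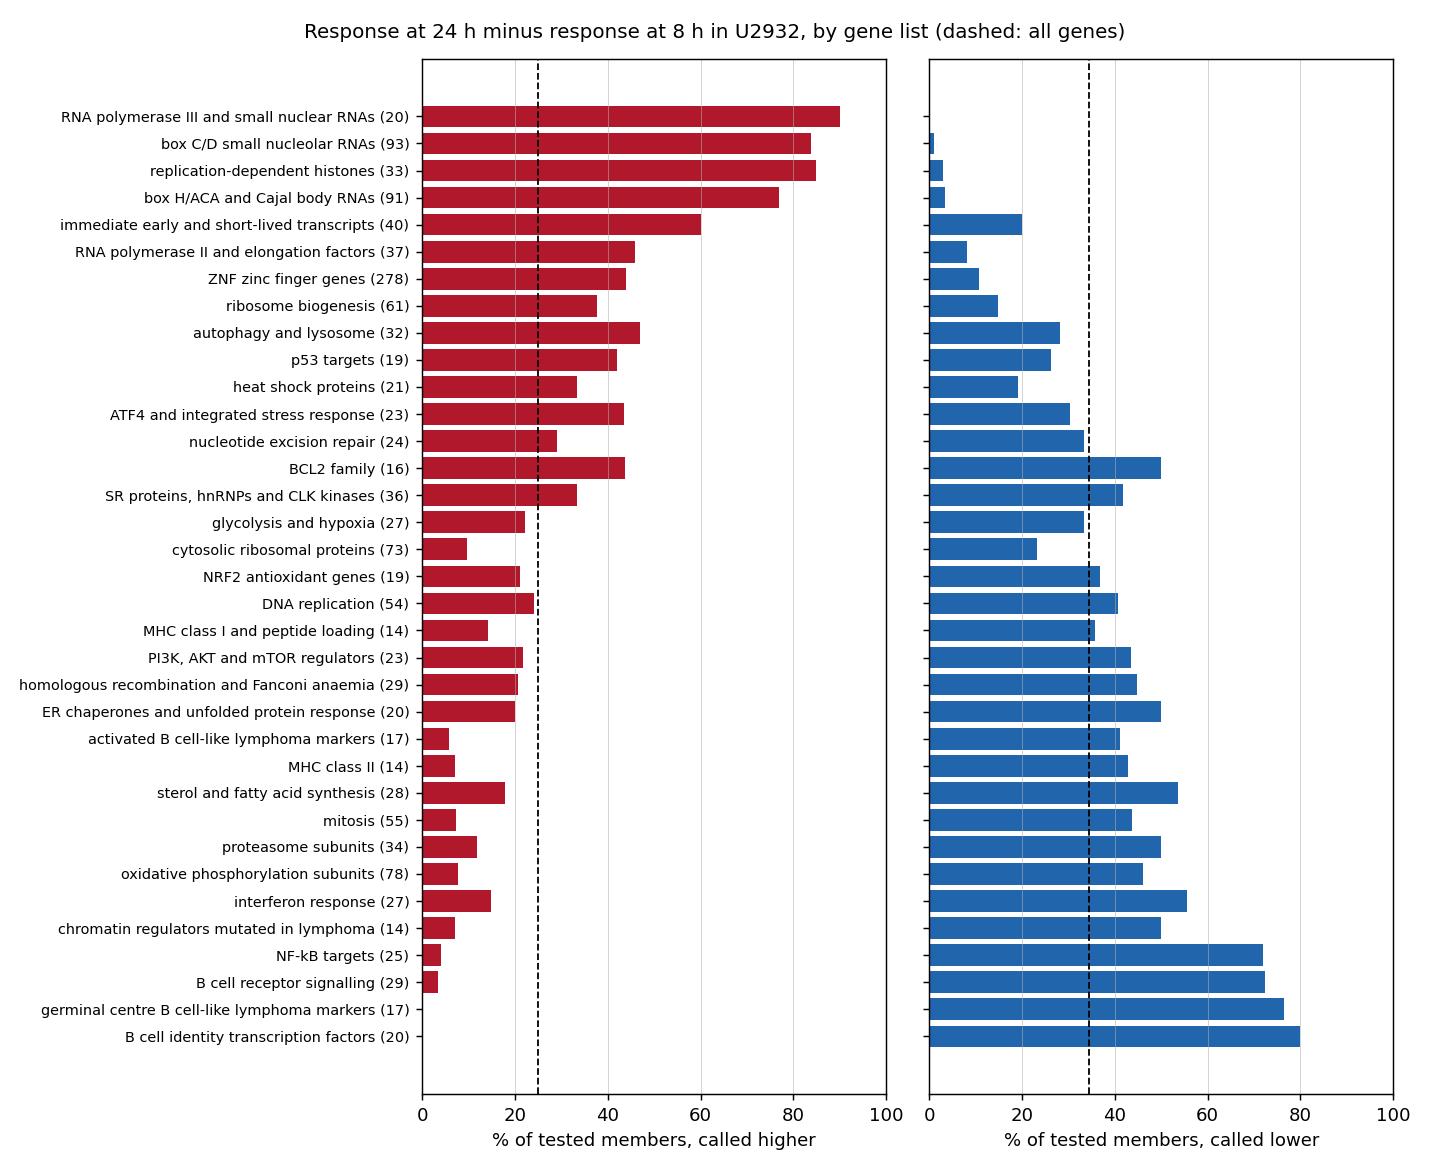
Share of the tested genes of each list with a higher or a lower response at 24 h than at 8 h in U2932 (percent, with all 9650 genes for comparison). B cell transcription factors and NF-kB targets were lower in 16 of 20 and 18 of 25 genes, and small nucleolar RNAs and histones mostly higher.

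Noncoding and nonpolyadenylated RNA classes had the most one-sided rises. Of 93 tested box C/D small nucleolar RNAs, which guide RNA methylation, 78 were higher and 1 lower, and of 91 box H/ACA and Cajal body RNAs, which guide pseudouridylation, 70 were higher and 3 lower. Of 20 RNA polymerase III and small nuclear RNAs 18 were higher and 0 lower, and of 33 replication-dependent histone genes 28 were higher and 1 lower. Over all genes, 25.0% were higher and 34.5% lower. The median effects of the histones were 1.96 at 24 h and 1.09 at 8 h. With median scaling these 4 lists had 46, 33, 15 and 14 higher and 6, 12, 1 and 3 lower. Of these lists 65 of 93, 56 of 91, 16 of 20 and 21 of 33 genes were above background on at least 1 array of every group, against 6964 of 9650 over all genes. Those in the background in DMSO cells can pass the detection filter through the treated arrays, which can favour higher counts. H2AC20 read 10.30, 10.01 and 10.08 in 24 h trabectedin cells, against 6.89, 6.83 and 6.73 in 24 h DMSO cells, and 8.92, 8.84 and 8.98 in 8 h trabectedin cells, against 6.98, 7.18 and 7.04 in 8 h DMSO cells. The exception, H4C3, was bright in every group and had -1.52 at 24 h and -0.39 at 8 h. Copies within these families are near-identical, and labelling starts from poly(A), so whether the probes read mature or extended forms was not measured. Small RNAs made up 9.25% of the grown rises, against 0.0939% of the grown falls. Their share over all tested genes was not counted, so these 2 shares are a description only.

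Of 278 zinc finger (ZNF) genes 122 were higher and 30 lower (43.9% and 10.8%, against 25.0% and 34.5% of all genes). On the median scale, which lowers the interactions as a whole, 46 were higher and 83 lower. Relative to the median of all genes, their median interaction was 0.31 on both scales. RNA polymerase II and elongation factors had 17 higher and 3 lower of 37, and 7 and 9 on the median scale, with a median 0.32 above that of all genes on both. POLR2A, the largest subunit of the polymerase, had 1.95 at 24 h and 1.22 at 8 h, and 1.74 and 1.20 on the median scale. SUPT5H, a subunit of the elongation factor DSIF, had 1.29 at 24 h and 0.37 at 8 h, and NELFA, a subunit of the negative elongation factor, 1.46 and 0.55, but the NELFA interaction was not called on the median scale. TCEA1, which restarts arrested polymerase, fell further, with -2.64 at 24 h and -1.18 at 8 h. Ribosome biogenesis genes, with 23 higher and 9 lower of 61, had 3 and 21 on the median scale, and their median lay 0.21 above that of all genes after quantile normalisation and 0.20 above it on the median scale.

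Genes of p53 and of apoptosis were divided. Of 19 p53 targets 8 were higher and 5 lower (42.1% and 26.3%, against 25.0% and 34.5% of all genes). On the median scale 2 were higher and 7 lower. CDKN1A, the p21 inhibitor of cyclin-dependent kinases, was above DMSO at both times (1.60 at 24 h, 1.41 at 8 h) without a called interaction (0.18, adjusted p = 0.223), while its other probe gave 1.03. TRIAP1, a p53-induced survival gene, had 2.19 at 24 h and 1.19 at 8 h. DDB2, which recognises lesions in nucleotide excision repair, reversed after quantile normalisation (-0.98, with 2 of 3 treated arrays above background, and 0.27) and fell at both times on the median scale (-2.21 and -0.55). Of the 16 BCL2 family genes, 7 were higher and 8 lower, and on the median scale 1 was higher and 9 lower. The anti-apoptotic BCL2 read 9.29, 9.62 and 9.51 in 24 h trabectedin cells, against 11.94, 12.07 and 11.99 in 24 h DMSO cells, and 10.37, 10.62 and 10.54 in 8 h trabectedin cells, against 12.32, 12.30 and 12.25 in 8 h DMSO cells. BCL2 and BCL2L1 (-2.25 at 24 h, -0.81 at 8 h), which protect cells from apoptosis, were lower at both times and further at 24 h. For BCL2 another probe fell likewise (-2.12 and -1.57), but 2 others were above DMSO at both times (0.57 at 24 h and 0.95 at 8 h, and 0.54 and 1.07), so the BCL2 probes disagree in direction. The protective MCL1 had 0.96 at 24 h and 0.36 at 8 h, although its other probe gave an interaction of -0.02. Of the pro-apoptotic genes, PMAIP1 had 1.27 and 0.99, BBC3 1.36 and 0.63, and BMF 2.03 and 1.32. For these 3 the interaction was not called on the median scale.

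Subunits of oxidative phosphorylation shifted by small amounts. Of 78 tested, 36 were lower and 6 higher (46.2% and 7.69%, against 34.5% and 25.0% of all genes). The median effect was -0.10 at 24 h and 0.15 at 8 h. On the median scale 49 were lower and 0 higher, but lower calls prevailed there over all genes too (14.1% of all called genes were higher). After quantile normalisation 7 reversed and 12 were late. The 7 were SDHC, ATP5MC1, NDUFC1, COX7C, NDUFA7, NDUFB6 and NDUFB8, subunits of complexes I, II, IV and V, and their 24 h effects lay between -0.26 (NDUFA7) and -0.49 (ATP5MC1). Other probes differed: that of ATP5MC1 was above DMSO at both times (0.30 and 0.77), and that of SDHC had -1.53 at 24 h and an 8 h effect of 0.13 that did not pass (adjusted p = 0.122). COX7C, the brightest of them, read 13.12, 13.24 and 13.19 in 24 h trabectedin cells, against 13.44, 13.44 and 13.61 in 24 h DMSO cells, and 13.51, 13.89 and 13.82 in 8 h trabectedin cells, against 13.44, 13.43 and 13.54 in 8 h DMSO cells. The 8 h groups of COX7C overlapped. NDUFB8 kept its reversal on the median scale (-0.64 and 0.22). NDUFS4 had a much larger fall, with -3.23 at 24 h and -1.07 at 8 h. Mitosis genes were lower in 24 and higher in 4 of 55 (43.6% and 7.27%), and proteasome subunits lower in 17 and higher in 4 of 34. Of 73 cytosolic ribosomal proteins, 17 were lower and 7 higher (23.3% and 9.59%), both below the shares over all genes.

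In some genes the interaction came more from the DMSO cells. NCF4, a subunit of the phagocyte oxidase, read 6.50, 5.97 and 6.24 in 24 h trabectedin cells, against 7.93, 8.14 and 8.13 in 24 h DMSO cells, and 7.07, 7.21 and 7.12 in 8 h trabectedin cells, against 7.0, 7.0 and 6.96 in 8 h DMSO cells. Its DMSO level was 1.08 higher at 24 h than at 8 h and its treated level moved by -0.90 (2 of 3 treated arrays above background at 24 h), and its other probes gave interactions of -0.05 and -1.68. LMNB1, lamin B1, moved by -0.33 in trabectedin and by 1.45 in DMSO cells, and MZB1, a B cell ER chaperone, by -0.68 and 0.96. BAX, the pro-apoptotic pore protein, rose between the times in both, by 0.57 in trabectedin and by 1.13 in DMSO cells, but its other probe gave no called interaction (-0.14, adjusted p = 0.67).

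The time response differed between the lines in many genes. It was higher in U2932 than in OCI-Ly7 in 1610 (16.7%) and lower in 2448 (25.4%). On the median scale those counts were 1034 and 854. The 24 h trabectedin arrays of OCI-Ly7 lay on a chip of their own, so chip and group cannot be told apart there. Of the 238 genes reversed towards lower in U2932, 102 had a called interaction of the same sign in OCI-Ly7 and 29 of the opposite sign, and the line difference was called, further lower in U2932, in 113. These 238 were chosen by a low interaction in U2932, which is part of the line difference, so the choice itself favours lower differences. For CD40 the interaction was -1.71 in U2932 and 0.86 in OCI-Ly7, a line difference of -2.57 ± 0.32 (SE, adjusted p = 5.43e-06, and -2.67 on the median scale). CXCR5 had -1.08 in U2932 and 0.76 in OCI-Ly7, a line difference of -1.85 ± 0.33 (adjusted p = 0.000183, and -1.56 on the median scale). IKZF3 moved the same way in both lines, with -3.24 in U2932 and -2.03 in OCI-Ly7. For UCP2 (-2.48 in U2932, -2.00 in OCI-Ly7) the line difference did not pass (adjusted p = 0.476).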

How the data were processed

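Values were measured on Illumina HT-12 bead arrays of 24 samples, 12 of them U2932. The deposited intensity values are raw summarised bead signals per probe, and the deposited log2 values equal quantile-normalised log2 of those intensities (largest difference 4.9945e-09). The software that made them is not given in the sources used here. From the intensities, background was corrected with limma 3.58.1 (R 4.3.3; normexp, offset 16), with 635 probes of olfactory and taste receptors, keratin-associated proteins, beta-defensins and similar genes as negatives, followed by log2 and quantile normalisation over 24 arrays. A probe was detected where under 0.01 of those 635 probes were as bright. Probes detected on at least 3 of the 12 arrays were kept (12744), and the brightest probe stood for each of 9650 genes. Of 47231 probes, 30113 had 1 gene symbol, 8 several and 17110 none. limma fitted 4 group means (8 residual degrees of freedom), with Benjamini-Hochberg adjustment at 0.05 over all genes. The line difference used all 24 arrays. Figures were drawn with matplotlib 3.10.9 (Python 3.11.15).

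Named genes were those with the largest interaction or 24 h effect in each class, among genes above background on at least 1 array of every group whose arrays did not overlap, plus the largest bounds, each list's highest and lowest called member and a few well-known genes; another 48 were chosen after their values were seen. Members and lists were chosen with earlier results of these data known. Same-numbered arrays did not deviate together (correlations -0.144 to 0.106), so the numbers do not pair them. Alternatives were other background correction, scaling, offset, detection filter, probe summary, array weights, a replicate block and leaving out each array. The precision is limited by the number of arrays.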

Additional observations from a re-analysis of the deposited data

Results flagged for a closer look

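The time response of a named gene was set against that in OCI-Ly7 by an interaction over all 24 arrays (limma, adjusted p under 0.05). Of 44 genes looked at, 33 differed between the lines, 15 higher and 18 lower in U2932. Over all 9650 genes, 16.7% were called higher and 25.4% lower. Apart from a few well-known genes, the 44 were picked for a large interaction, 24 h effect or bound in U2932. That choice favours a difference from OCI-Ly7, so the count is no result about these genes as a set. On the median scale 21 of the 33 kept call and sign, 12 were not called and 0 had the opposite sign. The 24 h trabectedin arrays of OCI-Ly7 lay on a chip of their own, so chip and group cannot be told apart.

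The differences below are U2932 minus OCI-Ly7 in log2 units. Interactions further towards higher in U2932 and called on both scales were GJB2 at 3.36, LINC00115 at 2.80, SNORD37 at 2.68, SIRT6 at 2.39, UPP1 at 2.30, ATF3 at 1.71, THAP6 at 1.43, NCOA6 at 1.40 and SNORD110 at 1.33. For NCOA6 this was a fall that was smaller at 24 h than at 8 h. GJB2, for instance, had an interaction of 3.45 in U2932 and 0.09 in OCI-Ly7, and UPP1 had 2.56 in U2932 and 0.26 in OCI-Ly7. SIRT6 went opposite ways, with 1.41 in U2932 and -0.98 in OCI-Ly7. Further towards lower in U2932 on both scales were PVRIG at -2.48, MSRB2 at -2.08, STYXL1 at -2.00, GTF2F2 at -1.98, ACOT13 at -1.96, NAPSA at -1.55, AASDH at -1.45, RILPL2 at -1.37, IKZF3 at -1.21, NAPSB at -1.16 and BCL2 at -0.73. The difference for IKZF3 and AASDH includes an 8 h rise in U2932 (2.08 and 1.06), and the 24 h effect of IKZF3 was -1.16 in U2932 and -1.65 in OCI-Ly7. For IKZF3 the difference was -1.87 on the median scale, and for BCL2 -1.39. CDKN1A, the p21 gene, differed by -1.71, with 0.18 in U2932 and 1.90 in OCI-Ly7. Its other probe had an interaction of 1.03 in U2932, so the size of this difference depends on the probe.

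Differences that were not called on the median scale were IRAIN at 1.66, RNF11 at 1.09, ZNF10 at 1.03, TXNL4B at 0.92, FERRY3 at 0.88 and MS4A1 at 0.74. On the lower side these were CAMP at -1.57, TNS3 at -1.01, ADA2 at -0.87, BCL6 at -0.86, ZNF559 at -0.69 and CRBN at -0.52.

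Of 17110 probes without a gene symbol, 30 were above background on all 3 of the 24 h trabectedin arrays and on no other U2932 array, against 9 that were above background on the 24 h DMSO arrays alone.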

How the results depend on the processing

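Scaling decided most of what moved. With median scaling 819 interactions were higher and 5001 lower (135 and 2249 by at least 1), and 1595 genes rose at 24 h and 1697 at 8 h. Treated arrays had 906 rises over time, and DMSO arrays 513 rises and 560 falls. Reversed rises numbered 33, late rises and falls 191 and 837, grown rises and falls 440 and 3681, and line differences 1034 higher and 854 lower. CDKN1A (-0.13), RFXAP (-0.20) and HLA-G (-0.14) turned negative there without being called, and DAPP1 was -0.52 averaged over its probes. Counts of at least 1 log2 unit were 139 higher and 343 lower without background correction and in the deposited values, and 248 and 587 with an offset of 50, which compress low signals by construction. With all 24 arrays in the fit, DMSO movement had 153 rises and 98 falls, reversed genes numbered 29 and 140, and recovered or shrunk genes 234 and 113; the cause was not tested. Among genes detected on all 12 arrays, which leaves out those lost by treatment, lower counts were 2023 for the interaction, 2315 at 24 h, 1861 at 8 h, 2320 for treated arrays over time and 1136 for grown falls, with 256 and 490 of at least 1.

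Leaving out 1 array gave 2251 to 2425 higher and 3087 to 3294 lower interactions, 53 to 68 and 203 to 242 reversed genes, and 472 to 867 rises and 533 to 1038 falls on DMSO arrays, lowest without the 24 h DMSO replicate 2. IRF4 was not called without 8 h trabectedin replicate 1 or 3, 24 h trabectedin replicate 1, 8 h DMSO replicate 2 or 3, or 24 h DMSO replicate 1 or 3. DAPP1 was not called without 24 h trabectedin replicate 1, 8 h trabectedin replicate 3, 24 h DMSO replicate 1 or 8 h DMSO replicate 3, nor MYC (-0.31) without 24 h DMSO replicate 2. With the replicate number as a block there were 2373 higher and 3272 lower interactions, and no count moved by over 1.5 times. The combined check of classes over both scales and background settings, and the line differences of single genes on the median scale, were chosen after seeing the data. For genes in the background, effects are bounded by the signal and not by the number of arrays.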

Other observations

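CD14, a myeloid surface receptor, read 10.63, 10.53 and 10.55 in 24 h trabectedin cells, against 5.81, 5.77 and 5.72 in 24 h DMSO cells, and 9.37, 9.51 and 9.57 in 8 h trabectedin cells, against 5.66, 5.77 and 5.72 in 8 h DMSO cells. Its rise was thus far outside the spread at both times, with 4.80 at 24 h and 3.77 at 8 h. The summed intensity of 9 myeloid markers on the array ran from 2572 to 2755 in 24 h trabectedin cells, against 583 to 605 in 24 h DMSO cells, and from 1692 to 1722 in 8 h trabectedin cells, against 610 to 657 in 8 h DMSO cells. This sum includes CD14 and does not show a rise of the whole set. Markers detected on all 3 arrays numbered 2 in 24 h trabectedin cells, 3 in 8 h trabectedin cells and 2 in each DMSO group. CSF1R, ITGAM, S100A8, S100A9 and TYROBP were in the background in all 4 groups. CD38, a plasma cell and germinal centre marker, had -2.55 at 24 h and -0.84 at 8 h, and CD44, an adhesion receptor, -3.96 (1 of 3 treated arrays above background) and -1.50.

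Other pathways were mixed. Of 32 autophagy and lysosome genes 15 had a higher and 9 a lower response (7 and 12 on the median scale). The shares were 46.9% and 28.1%, against 25.0% and 34.5% of all genes. The lysosomal channel MCOLN1 had 2.96 at 24 h and 1.40 at 8 h, and the membrane protein LAMP2 -2.77 and -1.40. The LAMP2 probes disagree: another fell (-2.29 and -1.18), 3 rose at both times (1.16 and 1.27, 0.58 and 0.91, and 0.34 and 0.69) and 1 reversed (-0.30 and 0.55). Of 23 genes of ATF4 and the integrated stress response 10 were higher and 7 lower (5 and 11 on the median scale). The shares were 43.5% and 30.4%, the lower one near the 34.5% of all genes. Of 29 genes of homologous recombination and Fanconi anaemia 13 were lower and 6 higher (44.8% and 20.7%, against 34.5% and 25.0% of all genes). NBN, a subunit of the MRN complex that senses breaks, reached the background in treated cells and was at least 10.3-fold lower in trabectedin than in DMSO cells at 24 h. Another NBN probe fell by much less, with -1.51 at 24 h and -1.05 at 8 h, an interaction of -0.46. In nucleotide excision repair, RAD23B, a partner of the damage sensor XPC, had -2.73 at 24 h (1 of 3 treated arrays above background) and -1.34 at 8 h, among 8 lower and 7 higher of 24 (33.3% and 29.2%, near all genes). MTOR was at least 6.64-fold lower in trabectedin than in DMSO cells at 24 h. Of 14 MHC class II genes 6 were lower and 1 higher (42.9% and 7.14%), with HLA-DOB at -0.86 at 24 h and 0.47 at 8 h, and at -2.26 and -0.23 on the median scale.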
